A study of Mus musculus with 13 samples.

Results

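The genes described here are 7 members of the mouse Reg family (Reg1, Reg2, Reg3a, Reg3b, Reg3d, Reg3g and Reg4) and Retnlb, which encodes resistin-like molecule beta. They were taken by gene symbol from the platform annotation and are 8 of 19505 named genes. Each had exactly 1 of the 19572 probe sets that carry 1 gene symbol. Expression was measured on 1-colour Affymetrix mouse arrays in gut tissue (colon or ileum) from FVB females. All of these mice, with and without antibiotic, bore a mammary carcinoma expressing human HER2 (a syngeneic tumour grown in immune-competent hosts). Treated mice were given vancomycin, a glycopeptide active mainly against Gram-positive bacteria, in their drinking water (200 mg/L), starting when they were 4 weeks old. Tissue was taken at 9 weeks with tumours of 150 mm3, and whether this is age or duration is not stated. Of the 13 arrays, 7 are colons (4 untreated, 3 given vancomycin) and 6 are ilea (3 and 3), and this number limits the precision of every value. No tumour-free mice were among the groups, and whether arrays come from separate mice is not stated, so the p-values reflect variation among these samples only, and that variation may be technical.

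Reg proteins are small secreted proteins built around a C-type lectin domain. In the intestine, Reg3b and Reg3g are antibacterial lectins of enterocytes and Paneth cells that bind bacterial surfaces, Reg3g chiefly those of Gram-positive bacteria, and their transcription rises with microbial colonisation through MyD88 signalling and through interleukin-22 acting on STAT3. Reg1, Reg2 and Reg3d are best known from the pancreas, and Reg4 marks deep crypt secretory cells of the colon and some enteroendocrine cells. Retnlb is a goblet cell protein, not a lectin, that is induced by bacterial colonisation and by the type 2 cytokines interleukin-4 and interleukin-13.

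In the RefSeq table of GRCm38.p6, Reg3b, Reg3d, Reg3a, Reg2, Reg1 and Reg3g stand in that order along chromosome 6, with 1 pseudogene between Reg1 and Reg3g; Reg4 lies on chromosome 3 and Retnlb on chromosome 16. RefSeq promoter windows were matched for 7 of the 8 genes, Retnlb being the gene without an entry. The 250 bases before the start of Reg3b, Reg3g and Reg3a are shown because the first pair deviated together over the 13 arrays, less clearly within the ileum, while Reg3a did not follow them (values are given further on). Capitals mark TATAAA on the strand shown and the longest run of bases that the Reg3b and Reg3g windows share, which is 20 bases long. The Reg3a window holds neither, so it has no capitals. It ends in tcactttgat, bases that in the Reg3g window stand ahead of TATAAA and the run. The Reg3a window may thus stop short of the matching stretch, and bases beyond it were not searched. Its lack of capitals therefore does not show that the gene lacks either. The sequences are of the C57BL/6J reference, not of the FVB mice.
Reg3b (chr6:78370635-78370884, plus strand): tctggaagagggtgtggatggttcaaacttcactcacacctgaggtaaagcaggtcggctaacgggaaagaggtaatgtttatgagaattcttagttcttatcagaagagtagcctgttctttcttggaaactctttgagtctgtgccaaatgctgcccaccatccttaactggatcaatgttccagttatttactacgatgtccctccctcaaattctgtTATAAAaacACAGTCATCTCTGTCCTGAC
Reg3g (chr6:78468875-78469124, minus strand): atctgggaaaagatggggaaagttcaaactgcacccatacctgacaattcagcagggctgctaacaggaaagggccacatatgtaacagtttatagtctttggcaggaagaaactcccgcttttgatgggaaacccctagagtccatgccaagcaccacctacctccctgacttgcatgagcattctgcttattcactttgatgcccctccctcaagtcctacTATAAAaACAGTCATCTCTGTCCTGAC
Reg3a (chr6:78380459-78380708, plus strand): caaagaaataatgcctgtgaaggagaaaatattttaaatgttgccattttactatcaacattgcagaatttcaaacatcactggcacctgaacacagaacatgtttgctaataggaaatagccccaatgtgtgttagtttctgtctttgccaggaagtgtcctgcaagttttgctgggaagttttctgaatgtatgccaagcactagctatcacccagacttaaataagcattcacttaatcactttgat

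The Reg3b and Reg3g windows were identical at 68.4% of aligned positions, against 44.9% to 56.9% for the other 20 pairs of Reg windows. Pairs with Reg4, which lies on another chromosome, ran from 44.9% to 48.2%. Windows were aligned over their whole length as cut at the annotated starts, so an offset can lower the identity of a pair. Reg3a, whose window may be offset, stood at 45.1% with Reg3b and 47.5% with Reg3g, and the part of the offset was not tested. The pattern TTCNNNGAA, the spacing bound by STAT3, occurred once in the Reg3b window, as TTCTTGGAA starting 129 bases before the start, and once in that of Reg3d; 7.02% of all 32851 windows hold it. The same ends, TTC and GAA, set 4 bases apart as STAT6 prefers, occurred in the Reg1 window alone among the 7 (5.85% of all windows). An NF-kappaB pattern, GGGA and CC set 4 bases apart, occurred in the Reg3g window alone among the 7, as GGGAAACCCC (17.6% of all windows). Both strands were searched and the matches do not overlap each other. A pair of patterns was added after the sequences were seen: TATAAA occurred in the windows of Reg1, Reg2, Reg3b and Reg3g (12.4% of all windows), and CACCTG in those of Reg2, Reg3a, Reg3b, Reg3d and Reg4 (17.2% of all windows). A match is a run of letters and not a measured binding site.

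Values are log2 expression values as the authors deposited them; their processing notes name RMA, which corrects the background, brings all arrays to 1 distribution and combines probes into probe sets. A difference of 1 is nominally a doubling. Levels are given per gene and are not set against those of another gene, since probe sets differ in brightness. Changes are differences of group means with their standard error (SE) from limma, fitted to all 13 arrays, and are called where the p-value adjusted by Benjamini-Hochberg over 19572 probe sets is under 0.05.

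The tissue labels were matched by marker genes: 7 of 7 colonocyte genes were higher in the colon without antibiotic and 8 of 8 ileal enterocyte genes were lower there. The mean correlation of an array with the others of its group was 0.977 to 0.995, lowest for vancomycin ileum 11. In that array the smooth muscle genes averaged 14.53, against 13.54 in vancomycin ileum 13 and 13.04 in 14, and the B cell genes 10.22, against 7.83 and 7.51 in the same arrays. Pancreatic acinar genes averaged 8.83 in colon 1, 8.44 in vancomycin colon 11, 7.35 in ileum 1 and 7.66 in vancomycin ileum 11, against 7.12 to 7.32 in the other colons and 6.86 to 6.93 in the other ilea. Reg genes are also expressed in the pancreas, so values without these 4 arrays are given gene by gene for the results that they moved.

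Most of these genes differed between the tissues. Without antibiotic 7 of the 8 differed between colon and ileum, 2 higher and 5 lower in the colon, where 20.5% of all probe sets were called (11% higher and 9.59% lower). With vancomycin 6 differed, 1 higher and 5 lower, where 15.1% of all probe sets were called (7.45% higher and 7.67% lower). Values of the tissues did not overlap for 7 genes without antibiotic and 6 with vancomycin, against 32.2% and 27.4% of all probe sets. The median difference, colon minus ileum, was -1.28 over the 8 genes without antibiotic and -1.50 with vancomycin, against 0.04 over all probe sets in both. Reg3b, Reg3g, Reg3a, Reg3d and Reg1 were the ileal genes and Retnlb the colonic gene under both conditions.

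**Figure D1:**
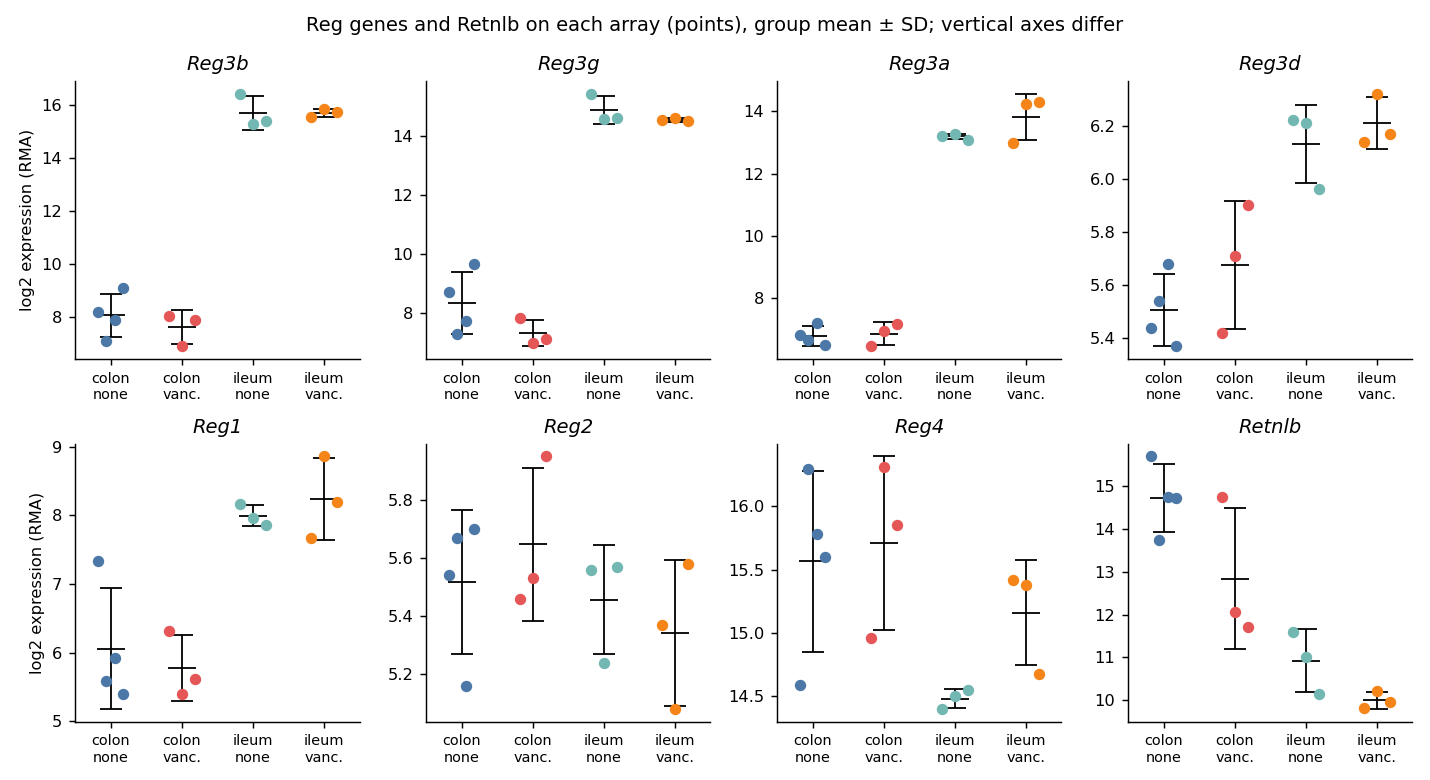
Log2 expression (RMA) of each of the 8 genes on every array, with 4 groups along the horizontal axis (none, no antibiotic; vanc., vancomycin) and the group mean ± SD in black; vertical axes differ between genes. Reg3b, Reg3g and Reg3a lie far apart between ileum and colon, Retnlb and most Reg4 values are higher in colon, and Reg2 shows no separation.

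Reg3b was an ileal gene at a level that differed little between the ileal groups. It read 16.43, 15.28 and 15.40 in the ilea without antibiotic and 15.56, 15.85 and 15.73 in those with vancomycin. In the colon it read 8.20, 7.10, 7.88 and 9.09 without antibiotic and 8.06, 6.90 and 7.91 with vancomycin. The tissues did not overlap, and within each tissue the treatments did. Colon minus ileum was -7.64 ± 0.41 (SE) without antibiotic and -8.09 ± 0.44 with vancomycin (limma, adjusted p = 8.90e-09 and 1.31e-08). The vancomycin difference was 0.01 ± 0.44 in the ileum (95% interval -0.93 to 0.95, adjusted p = 0.996 in limma) and -0.44 ± 0.41 in the colon (-1.32 to 0.43, adjusted p = 0.626 in limma). Without the 4 arrays numbered 1 and 11 these were 0.45 ± 0.50 and -0.62 ± 0.45, neither called. The intervals are wide, the colon one reaching past a nominal halving, so equal levels are not shown. One ileal array, at 16.43, lies above 16; 437 of 28846 probe sets have at least 1 such value, and capping them at 16 changed no call for Reg3b.

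Reg3g followed the same tissue pattern. The ilea read 15.44, 14.59 and 14.62 without antibiotic and 14.53, 14.62 and 14.50 with vancomycin. The colons read 8.70, 7.27, 7.72 and 9.64 without antibiotic and 7.82, 6.98 and 7.12 with vancomycin, the highest values being those of colons 5 and 1. Colon minus ileum was -6.55 ± 0.44 without antibiotic and -7.24 ± 0.47 with vancomycin (limma, adjusted p = 8.86e-08 and 7.59e-08). In the colon the vancomycin mean was 1.03 ± 0.44 below the mean without antibiotic, from 8.33 ± 1.06 (SD, n = 4) to 7.31 ± 0.45 (SD, n = 3). This had an unadjusted p of 0.0339 in limma, as had 15.9% of all probe sets under 0.05, and an adjusted p of 0.276, so it was not called. Without colon 5 the difference was -0.59. In the ileum the difference was -0.33 ± 0.47 (95% interval -1.33 to 0.67, adjusted p = 0.850 in limma), and -0.0550 without ileum 1 or -0.0450 without the 4 arrays numbered 1 and 11.

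Reg3a, another lectin of the cluster, was ileal as well. It read 13.22, 13.27 and 13.09 in the ilea without antibiotic and 12.98, 14.22 and 14.29 in those with vancomycin. In the colon it ran from 6.50 to 7.22 without antibiotic and from 6.46 to 7.19 with vancomycin. Vancomycin ilea 13 and 14 lay above every untreated ileum, while vancomycin ileum 11 lay below them. The ileal difference was 0.64 ± 0.30 (adjusted p = 0.507 in limma) with all arrays. It was called without vancomycin ileum 11, at 1.06 ± 0.23 (adjusted p = 0.0451), where 172 probe sets were called in place of 105, and with array weights, at 0.95 ± 0.19 (adjusted p = 0.0100), where 1012 were. Without the 4 arrays numbered 1 and 11 it was 1.08 ± 0.24 and not called (adjusted p = 0.101). It was positive under every alternative run, lowest at 0.41 without vancomycin ileum 14. Vancomycin ileum 11 is the array with the high smooth muscle and B cell genes. Its mean over general epithelial genes was 15.48, against 15.83 to 15.93 in the other ilea. Its mean over ileal enterocyte genes was also the lowest of the ilea, at 14.36 against 15.25 to 15.685. Its mean over Paneth cell genes was instead the highest, at 12.997 against 11.55 to 12.33. The part of these cell types in the Reg3a result was not tested. In such tissue samples fewer cells of a type and less RNA per cell cannot be told apart. The tissues differed by -6.40 ± 0.28 without antibiotic and -6.97 ± 0.30 with vancomycin (limma, adjusted p = 1.40e-09 and 1.46e-09).

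Reg3d gave low values in both tissues and was among the dimmest 33.3% of probe sets, as was Reg2; the other 6 genes were above that limit. Reg3d ran from 5.37 to 5.68 in the colon and from 5.96 to 6.22 in the ileum without antibiotic, with no overlap. Colon minus ileum was -0.62 ± 0.14 without antibiotic (limma, adjusted p = 0.00605) and -0.53 ± 0.15 with vancomycin (adjusted p = 0.0291). The second call was lost without vancomycin colon 11 or 13 or vancomycin ileum 13 or 14, with differences between -0.41 and -0.55, and without the 4 arrays numbered 1 and 11 (-0.44, adjusted p = 0.162). It was also lost, at the same difference, in a limma fit of the vancomycin arrays alone (adjusted p = 0.113) and with the array number as a fixed replicate block (adjusted p = 0.0608), and kept with that number as a random block (adjusted p = 0.0211). Without the same 4 arrays the difference without antibiotic was -0.56 (adjusted p = 0.0488). Vancomycin differed from no antibiotic by 0.17 ± 0.14 in the colon and 0.08 ± 0.15 in the ileum, neither called. Reg2 showed no difference that was called in any comparison. Its 13 values ran from 5.08 to 5.95, colon minus ileum was 0.06 ± 0.18 without antibiotic and 0.30 ± 0.19 with vancomycin, and the vancomycin differences were 0.13 ± 0.18 in the colon and -0.11 ± 0.19 in the ileum.

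Reg1, whose product was first described as the pancreatic stone protein, was higher in the ileum. It read 8.16, 7.96 and 7.86 in the ilea without antibiotic and 7.67, 8.86 and 8.20 with vancomycin. In the colon it read 7.34, 5.58, 5.92 and 5.39 without antibiotic and 6.31, 5.40 and 5.61 with vancomycin. Colon 1 and vancomycin colon 11, the highest of their groups, were also the colons with high pancreatic genes: Ctrb1, which encodes chymotrypsinogen, read 8.61 and 7.46 there and 4.40 to 4.76 in the other 5 colons. The ilea numbered 1 and 11, with Ctrb1 at 6.20 and 6.02 against 4.26 to 4.75 in the other ilea, were the highest and the lowest of their groups for Reg1. The part of pancreatic RNA in the colon values was not tested, and Ctrb1 was singled out after its values were seen. Colon minus ileum was -1.94 ± 0.40 without antibiotic and -2.47 ± 0.43 with vancomycin (limma, adjusted p = 0.00299 and 0.00108). Without the 4 arrays numbered 1 and 11 it was -2.28 and -3.03 (limma, adjusted p = 1.85e-05 and 4.05e-06). Vancomycin differed from no antibiotic by -0.28 ± 0.40 in the colon and 0.25 ± 0.43 in the ileum, neither called, and the colon value turned to 0.14 without colon 1. Without the 4 arrays these were -0.13 ± 0.23 and 0.62 ± 0.25, neither called.

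Reg4 was high in both tissues and varied most within the colon. It read 14.59, 16.29, 15.78 and 15.60 in the colons without antibiotic and 14.96, 16.31 and 15.85 with vancomycin. In the ileum it read 14.40, 14.50 and 14.55 without antibiotic and 15.42, 15.38 and 14.68 with vancomycin. The ileal groups did not overlap, as was the case for 16.9% of all probe sets, and the difference of 0.68 ± 0.39 was not called (95% interval -0.15 to 1.51, adjusted p = 0.579 in limma). In the colon the difference was 0.14 ± 0.36 (adjusted p = 0.885 in limma), and -0.18 without colon 1. Colon minus ileum was 1.08 ± 0.36 without antibiotic (limma, adjusted p = 0.0482) and 0.55 ± 0.39 with vancomycin (adjusted p = 0.411). The first call was lost in 8 of the 13 fits that leave out 1 array (colon 2, 3 or 5, vancomycin colon 14, ileum 1, 2 or 3, or vancomycin ileum 13), with differences of 0.84 to 1.12. It was also lost, in limma, with a trended and robust prior (adjusted p = 0.0554), with arrays centred on a common median (0.0589), with values above 16, of which Reg4 has 16.29 and 16.31, capped at 16 (0.0546), with all rows of the table (0.0731) and with a fixed replicate block (0.0685). Without the 4 arrays numbered 1 and 11 it was 1.37 (adjusted p = 0.00269). The second, with vancomycin, was called without those arrays, at 1.05 ± 0.28 (adjusted p = 0.0246).

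Over the 7 colon arrays Reg4 was lowest in colon 1 and vancomycin colon 11 and highest in colon 2 and vancomycin colon 13. Hoxb13, a homeobox gene of the distal gut, read 11.55 and 12.35 in the first pair and 13.80 and 13.19 in the second. Pearson's r between Reg4 and Hoxb13 was 0.916 over the 7 arrays (Spearman's rho 0.929, and r = 0.893 without the 2 arrays farthest from the median of Reg4). This gene was singled out after its values were seen, the 7 arrays include both treatments, and the position along the colon from which each sample came is not given in the labels. Its part in the Reg4 values was not tested.

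Retnlb was the colonic gene and showed the largest vancomycin difference of the 8. The colons without antibiotic read 15.70, 13.74, 14.74 and 14.72, and those with vancomycin 14.74, 12.07 and 11.72. Vancomycin colons 13 and 14 lay below every untreated colon, whereas vancomycin colon 11 lay among them. The means were 12.84 ± 1.65 (SD, n = 3) with vancomycin and 14.73 ± 0.80 (SD, n = 4) without, a difference of -1.88 ± 0.61 (95% interval -3.19 to -0.57). Its unadjusted p was 0.0082 and its adjusted p 0.185 in limma, rank 864 of 19572, so it was not called with all arrays. Without vancomycin colon 11 it was called, at -2.83 ± 0.44 (adjusted p = 0.0207), in a fit that called 109 probe sets where the fit of all arrays called 2. It was also called without the 4 arrays numbered 1 and 11, at -2.51 ± 0.32 (adjusted p = 0.0172). Leaving out vancomycin colon 14 gave -1.32, the value nearest to 0 among the fits that leave out 1 array.

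In the ileum Retnlb read 11.60, 11.02 and 10.15 without antibiotic and 9.81, 10.21 and 9.96 with vancomycin. The groups overlapped in 1 pair of arrays, and the difference of -0.93 ± 0.65 (95% interval -2.33 to 0.47) was not called (adjusted p = 0.656 in limma). The vancomycin difference in the ileum minus that in the colon was 0.95 ± 0.89 (adjusted p = 0.849 in limma), so no difference between the tissues was shown. Without the 4 arrays numbered 1 and 11 the ileal difference was -0.50 ± 0.35, and the difference between the tissues 2.01 ± 0.48 (adjusted p = 0.149 in limma). The colon exceeded the ileum by 3.80 ± 0.61 without antibiotic and 2.85 ± 0.65 with vancomycin (limma, adjusted p = 0.000415 and 0.00773), the second being 1.81 without those arrays (adjusted p = 0.00374).

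Retnlb varied between the colons together with genes of several kinds. Ang4, an antimicrobial angiogenin of Paneth and goblet cells, read 15.05, 14.09, 14.84 and 14.29 in the untreated colons and 14.71, 13.36 and 12.75 with vancomycin, so the same vancomycin arrays were low. Pearson's r between Retnlb and Ang4 was 0.969 over the 7 colon arrays (Spearman's rho 0.991, and r = 0.863 without the 2 arrays farthest from the median of Retnlb), and between Retnlb and Spdef, a goblet cell transcription factor, 0.958 (rho 0.883, and r = 0.929). It also varied with Alpi, an alkaline phosphatase of enterocytes (r = 0.877, rho 0.883, and r = 0.969). With Hoxb13, the distal gut gene given for Reg4, it varied inversely and less closely over the 7 arrays (r = -0.626, rho -0.739). The 2 arrays farthest from the median of Retnlb are vancomycin colons 13 and 14. Without them r with Hoxb13 was -0.956, larger in size than that with Ang4 or Spdef. In the 6 ilea r was -0.544 with Ang4, 0.544 with Spdef, 0.309 with Alpi and -0.864 with Hoxb13. Without the 2 ilea farthest from the median of Retnlb these were -0.780, 0.998, 0.566 and 0.575. These partners were chosen after their values were seen. The arrays of each tissue include both treatments, so differences between the treatment groups enter these values of r. The 14 goblet cell genes averaged 14.24 to 14.54 in the untreated colons and 13.98, 13.86 and 13.11 in the vancomycin colons, in the order of arrays 11, 13 and 14. All 14 were lower on average with vancomycin in the colon (median -0.69, against 0.02 over all probe sets) and 0 were called in limma. General epithelial genes averaged 15.27 to 15.39 and 15.19 to 15.36 in the same groups. The part of goblet cell content, or of position along the colon, in the Retnlb result was not tested.

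**Figure D2:**
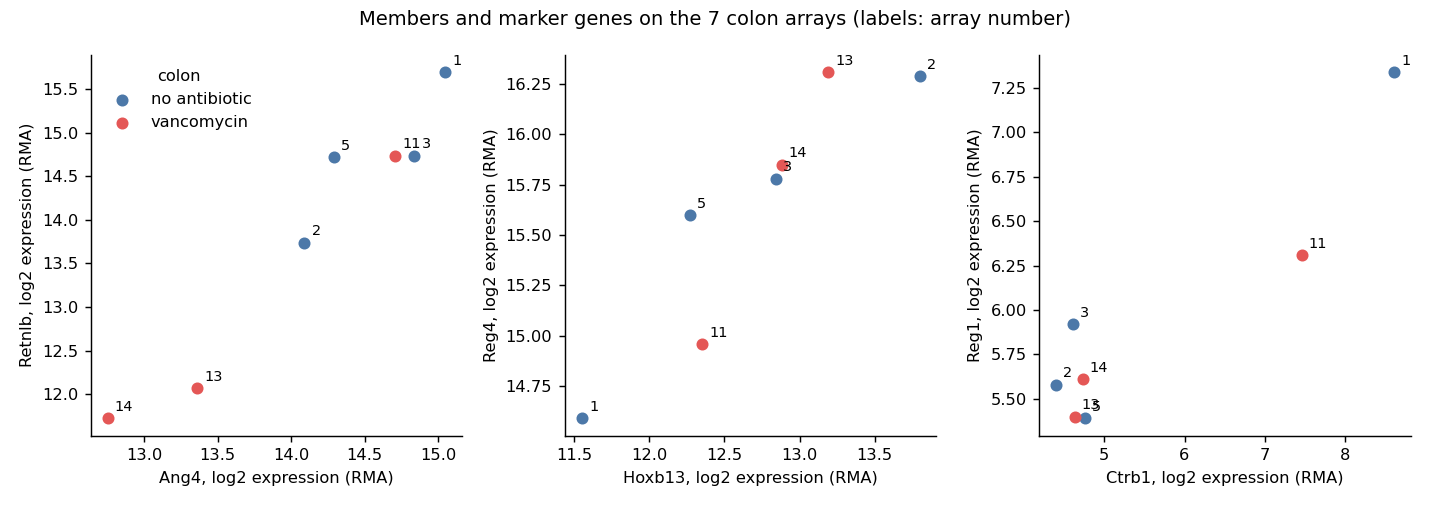
Log2 expression (RMA) of Retnlb against Ang4, Reg4 against Hoxb13 and Reg1 against Ctrb1 on the 7 colon arrays, coloured by treatment and numbered as in the labels. Retnlb follows Ang4 (r = 0.969) and Reg4 follows Hoxb13 (r = 0.916) along the whole range, whereas the relation of Reg1 with Ctrb1 (r = 0.930) rests on arrays 1 and 11, without which it is -0.234.

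None of the 8 genes was called for vancomycin in either tissue or for the difference between tissues in limma. Called shares over all probe sets were 0.0102% in the colon, 0.536% in the ileum and 0.189% for the difference, so a count of 0 among 8 is near the background. At an unadjusted p under 0.05 there were 2 in the colon, Reg3g and Retnlb, 0 in the ileum and 0 for the difference, where the shares of all probe sets were 15.9%, 10.1% and 8.01%. The direction was split: 4 positive and 4 negative in the colon (median -0.11) and 5 positive and 3 negative in the ileum (median 0.05). The groups did not overlap for 0 genes in the colon, against 12.3% of all probe sets, and for 1 in the ileum, Reg4.

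**Figure D3:**
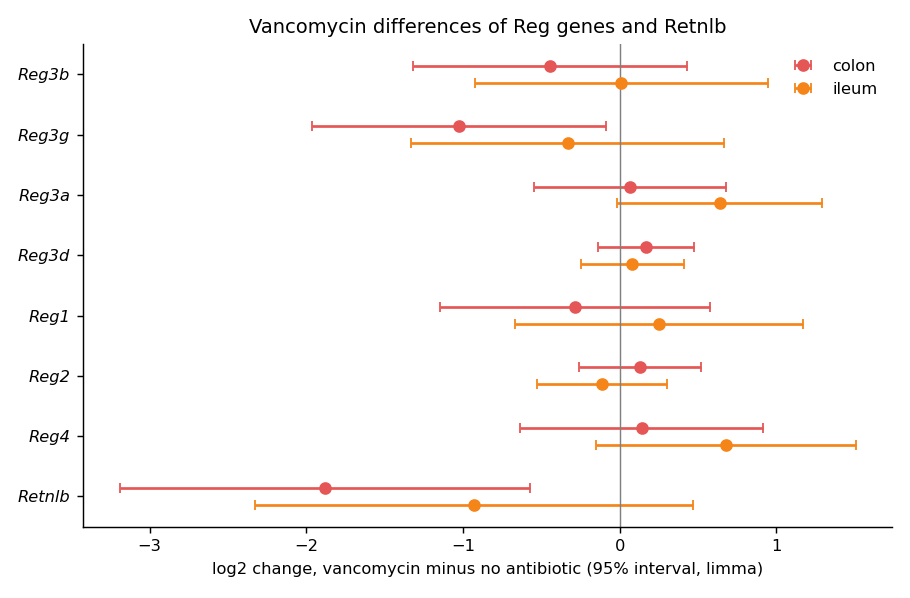
Vancomycin minus no antibiotic in log2 units for each gene, in the colon and the ileum, with 95% intervals from limma; the vertical line is 0. Only the colon intervals of Retnlb (-3.19 to -0.57) and Reg3g (-1.96 to -0.09) exclude 0 before adjustment.

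The genes also varied within groups, and not as 1 block. The within-group SD was 0.97 for Retnlb, 0.69 for Reg3g, 0.64 for Reg3b and 0.63 for Reg1, against a median of 0.24 over all probe sets, and 0.16 for Reg3d. Deviations of each array from its group mean were compared over the 13 arrays, which share groups and, by number, possibly mice. Reg3b and Reg3g deviated together (r = 0.903, Spearman's rho 0.901, and r = 0.778 without the 2 arrays farthest from the median of Reg3b). Over the levels in the 7 colons r was 0.886 (rho 0.893, and r = 0.629 without the 2 farthest). In the 6 ilea r was 0.839 (rho 0.406), and it was -0.127 without ileum 1 and ileum 2, so there it rests on those arrays. Reg3a did not follow Reg3b (r = -0.0716) or Reg3g (r = -0.282), but deviated with Reg3d (r = 0.638, rho 0.731). Reg4 deviated against Retnlb (r = -0.774, rho -0.674) and against Reg1 (r = -0.731, rho -0.632). Without colon 1 and vancomycin colon 11, the arrays farthest for Reg4 and the colons with high pancreatic genes, r with Retnlb was -0.533. Without the 2 arrays farthest from the median of Reg1, r between Reg4 and Reg1 was -0.735. Probe sequences were not used here, so whether probe sets of these related genes share signal was not tested.

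**Figure D4:**
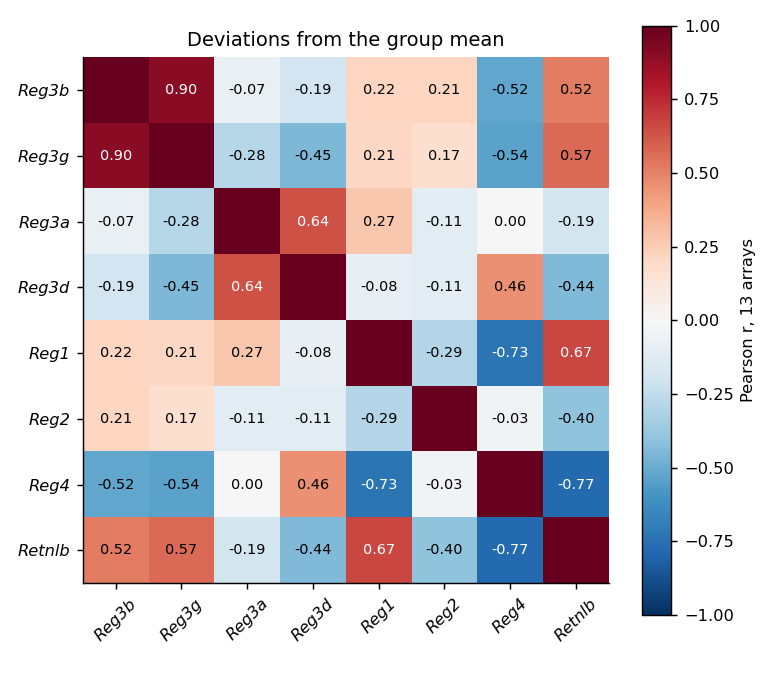
Pearson's r between the 8 genes over the deviations of 13 arrays from their group means, in red where positive and blue where negative. Reg3b with Reg3g (0.90) is the highest pair and Reg4 with Retnlb (-0.77) the lowest.

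Other genes with the most similar deviations were taken as a description, 3 for each gene by Pearson's r over the 13 arrays, the highest of 19572 probe sets. For Reg3b these were Daglb (0.915), Sema6d (0.913) and Cpt1a (0.876), and for Reg3g Daglb (0.943), Dlk1 (0.938) and St3gal4 (0.928), so Daglb stood first for both. For Retnlb they were Camk2n1 (0.931), Muc2 (0.919) and Olfr418 (0.918), Muc2 being the main gel-forming mucin of goblet cells. For Reg4 they were Cip2a (0.966), Slc36a1 (0.958) and Usp35 (0.942), with 1 predicted gene passed over, and for Reg3a Bnip5 (0.964), Mov10 (0.963) and Rnase11 (0.954). Those of Reg1 were Arhgap22 (0.943), Peg10 (0.913) and Adk (0.908), of Reg3d H2ab2 (0.954), Cox7b2 (0.943) and Ttc37 (0.926), and of Reg2 Zcchc9 (0.905), Fam3a (0.873) and Slc39a2 (0.869). Each of the 8 genes had a best partner at 0.905 or above, so a high value singles out no gene by itself.

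The signals that induce these genes were read next. Of 19 measured genes of the interleukin-22 and interleukin-17 axis, 0 were called in either tissue (limma; median 0.04 in the colon and 0.05 in the ileum, against 0.02 over all probe sets in both). Stat3, the transducer of interleukin-22, stood at -0.54 ± 0.20 in the ileum (adjusted p = 0.379 in limma), Il6ra at 0.93 ± 0.38 and Ticam1, an adaptor of Toll-like receptors, at -0.47 ± 0.23. In vancomycin ilea 11, 13 and 14 Il6ra read 10.05, 8.91 and 8.56, against 7.90 to 8.48 in untreated ilea. Ticam1 read 11.14, 12.21 and 12.06 (12.18 to 12.34 untreated), and Stat3 12.54, 12.27 and 12.36 (12.51 to 13.17). Array 11 was farthest from the untreated ilea for Il6ra and Ticam1, but nearest for Stat3. In the colon Il6 stood at -0.42 ± 0.20, Il17a at 0.34 ± 0.17 and Il17rc at 0.30 ± 0.16. Of 11 measured genes of the type 2 axis 0 were called (median -0.14 in the colon and 0.01 in the ileum). Il13ra1, a receptor chain for interleukin-13, had the smallest p of that list in both tissues, at -0.65 ± 0.20 in the colon and -0.78 ± 0.22 in the ileum (adjusted p = 0.179 and 0.175 in limma). Il25, which promotes type 2 responses, stood at 0.42 ± 0.19 and Cdx1, an intestinal homeobox factor, at -0.30 ± 0.14 in the colon, and Il4ra at -0.36 ± 0.24 and Il13 at 0.22 ± 0.15 in the ileum. At an unadjusted p under 0.05 there were 1 gene of the first list in the colon (Il6) and 2 in the ileum (Stat3 and Il6ra), and 3 and 1 of the second, where the shares of all probe sets were 15.9% in the colon and 10.1% in the ileum.

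Among 18 other measured genes of epithelial host defence, 3 fell and 0 rose in the ileum, where 0.485% of all probe sets fell and 0.0511% rose, and 0 were called in the colon (limma; medians 0.10 and 0.24). The 3 were Nos2, the inducible nitric oxide synthase (-3.50 ± 0.37), Saa1, a serum amyloid A (-3.17 ± 0.56), and Duoxa2, the maturation factor of a hydrogen peroxide-producing oxidase (-3.50 ± 0.65). Of this list Nos2 alone was called for the difference between the tissues, at -3.67 ± 0.51 (adjusted p = 0.0108 in limma). The ileal 95% intervals of Reg3b and Reg3g reach no lower than -0.93 and -1.33. The 3 genes are those with the smallest p of their list, and Reg3b and Reg3g were not tested against them. In untreated ilea Reg3b and Reg3g were brighter than 98.9% and 97.4% of probe sets, and whether brightness limits their changes was not tested. In the colon the smallest p-values were those of Zg16, a goblet cell lectin (-1.33 ± 0.27, adjusted p = 0.0968), Pla2g2a, a secreted phospholipase that kills Gram-positive bacteria (-1.18 ± 0.32, adjusted p = 0.146), and Camp, cathelicidin (0.35 ± 0.14, adjusted p = 0.253), by limma and none called. Of 12 Paneth cell genes 0 were called in either vancomycin comparison, with Ang4 at 1.21 ± 0.50 in the ileum and -0.96 ± 0.47 in the colon. Ang4 read 15.15 in vancomycin ileum 11, against 13.50 and 13.35 in vancomycin ilea 13 and 14 and 12.50 to 13.20 in untreated ilea. Of 9 enteroendocrine genes, all 9 were lower on average in the colon (median -0.47) and 8 of 9 higher in the ileum (median 0.50), against a median of 0.02 over all probe sets in both, with 0 called within a tissue. For the difference between the tissues all 9 were positive (median 0.73) and 1 was called, Tph1, at 2.10 ± 0.33 (adjusted p = 0.0184 in limma). Tph1, which starts serotonin synthesis, stood at -1.32 ± 0.22 in the colon and Chgb, a granule protein, at 0.76 ± 0.20 in the ileum. The list of resistin relatives and the Reg receptor had 0 of 4 called. Retnla, which encodes resistin-like molecule alpha, stood at -1.68 ± 0.62 in the colon and 0.54 ± 0.67 in the ileum, Retn, resistin, at 0.96 ± 0.56 in the ileum, Retnlg at -0.18 ± 0.14 in the colon, and Extl3, a receptor for Reg proteins, at -0.23 ± 0.21 and 0.06 ± 0.23.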

How the data were processed

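Colon and ileum RNA was measured on 13 arrays. The authors deposited log2 expression values, RMA and Affymetrix Expression Console (1.4.1.46) being named in the submitters' processing notes; the role of each tool and any batch are not given in the sources used here. RMA equalises the arrays' distributions, so a shift of all genes would not be seen. Values run from 3.01 to 18.25. Of 28846 probe sets, 19572 carry 1 gene symbol (the platform annotation, all matched to RefSeq) and 9274 none. Group means were fitted with limma 3.58.1 in R 4.3.3 to all arrays, with eBayes and Benjamini-Hochberg adjustment over the 19572, for 5 comparisons: vancomycin in each tissue, their difference, and colon against ileum under each condition. No filter on low values was applied. The fit was tested on simulated data.

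The 8 genes and the 13 gene lists (140 of 149 entries measured) were chosen with earlier results of these data known. Named from the lists were up to 3 genes a tissue with the smallest p, or 1 for cell type lists; others are marked as chosen after their values were seen. Numbers shared by colon and ileum arrays were checked by correlating deviations of same-numbered arrays. The values were 0.236, 0.176 and 0.107 for vancomycin numbers 11, 13 and 14, and 0.0754, 0.0302 and -0.0162 for untreated numbers 1, 2 and 3. The highest value of the same colons with an ileum of another number was 0.0693, 0.149 and 0.104, and 0.0558, 0.0683 and 0.0732. The main fit has no block; blocked values are given where they change a call. Promoters were compared with Biopython 1.88. Alternatives were other fits, scalings, filters and rows, and each array left out.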

Additional observations from a re-analysis of the deposited data

Results flagged for a closer look

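In the 4 untreated colons 1 array stood apart from the others for 12 listed genes and 1 list mean, by the gap to its nearest neighbour as a share of the range. All 157 sets were examined in this way (the 8 genes, all measured listed genes and the 13 list means), and chance flags about 1 in 20. Colon 1 was high for the pancreatic genes Amy2a5, at 13.46 against 7.07 to 7.54 (share 0.926), Ctrb1, at 8.61 against 4.40 to 4.76 (share 0.914), and Cpb1, at 9.22 against 6.73 to 7.15 (share 0.831). The mean of the pancreatic acinar list, at 8.83 there, had a share of 0.881. Colon 1 was also high for Mmp7, at 7.51 against 6.68 to 6.82 (share 0.831). Colon 2 was low for Cdx2, at 10.22 against 12.00 to 12.31 (share 0.852), and for the smooth muscle genes Cnn1, at 15.56 against 16.37 to 16.49 (share 0.871), and Myl9, at 12.82 against 13.63 to 13.73 (share 0.890). The same array was high for Slc26a3, a colonocyte chloride transporter, at 16.80 against 16.26 to 16.34 (share 0.852). Colon 3 was low for Extl3, at 9.70 against 10.24 to 10.31 (share 0.885), and high for Il17a, at 6.61 against 6.12 to 6.17 (share 0.898). Colon 5 was high for Defa24, at 6.81 against 6.04 to 6.08 (share 0.948), and S100a8, at 5.53 against 4.75 to 4.88 (share 0.833). None of the 8 genes stood apart in this way in that group, and groups of 3 were not examined.

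The vancomycin effect differed between the tissues, by limma's test of the difference, for 2 listed genes. Ileum minus colon was -3.67 for Nos2 (adjusted p = 0.0108) and 2.10 for Tph1 (adjusted p = 0.0184).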

How the results depend on the processing

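In 25 settings other than the main fit, the tissue calls ranged from 6 to 7 genes without antibiotic and from 5 to 6 with vancomycin. The count for the difference between tissues was 0 throughout. The vancomycin count became 1 in the ileum with array weights (Reg3a) and ranged from 0 to 1 with 1 array left out. In the colon it became 1 without the 4 arrays numbered 1 and 11 (Retnlb), a setting chosen after seeing the data, and ranged from 0 to 1 with 1 array left out. Reversed signs were all of small, uncalled differences. Reg3b in the ileum was -0.0232 with the replicate block as a random effect, -0.0133 with arrays centred on a common median, and -0.202 to 0.373 with 1 array left out. Reg3a in the colon was -0.0158 after quantile normalization again and -0.0975 to 0.268 with 1 array left out. With 1 array left out the other ranges that cross 0 were -0.552 to 0.143 for Reg1, -0.0225 to 0.223 for Reg2 and -0.183 to 0.515 for Reg4 under vancomycin in the colon, -0.0583 to 0.537 for Reg1, -0.232 to 0.0183 for Reg2 and -0.00500 to 0.125 for Reg3d under vancomycin in the ileum, -0.218 to 0.0225 for Reg3d in the difference between tissues, and -0.0475 to 0.180 for Reg2 between the tissues without antibiotic. The replicate block (correlation 0.0975) changed no other call as a random effect; as a fixed effect Reg4, colon against ileum without antibiotic, was 1.07 (adjusted p = 0.0685 in limma) and Reg3d with vancomycin -0.53 (adjusted p = 0.0608 in limma), neither called. Over all probe sets, vancomycin calls ranged from 0 to 217 in the colon (2 with all arrays; 217 without colon 3) and from 20 to 1012 in the ileum (105 with all arrays; 1012 with array weights), and calls for the difference from 12 to 191 (37 with all arrays); the cause was not tested. Every gene has 1 probe set, so no other row could be tried; the compared groups alone give no value for the difference, the fixed block none for the vancomycin comparisons, and the filter on dim probe sets none for Reg3d and Reg2.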
